A study of Homo sapiens with 18 samples.

Results

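IGF2 and the IGF binding protein genes IGFBP2, IGFBP3, IGFBP4, IGFBP5, IGFBP6 and IGFBP7 were described across GIST-T1 cells, a human line from a gastrointestinal stromal tumor whose growth depends on the receptor KIT. They are the 7 rows of those names among 23621 genes in the deposited table, and they were chosen by family and not by a threshold on their values. Of the 7, 6 reached 1 FPKM in at least 3 libraries and were tested, and IGFBP4 did not. The values are FPKM, a read-based level per transcript length, here deposited with totals that differ between libraries, from 18 poly(A) RNA libraries in 6 groups of 3. The groups were imatinib plus JQ1 for 24 h, JQ1 for 24 h, imatinib for 24 h, JQ1 for 6 h, imatinib for 6 h, and DMSO, the solvent control, for which the labels give no time. Each drug was used at 500 nM. Imatinib blocks the kinase activity of KIT, and JQ1 blocks the bromodomains of the BET proteins, which bind acetylated chromatin. All libraries come from 1 cell line. Since no label ties the libraries of a group to separate cultures, the p-values reflect variation between libraries that could be technical.

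IGF2 is a secreted growth factor that signals through the IGF1 receptor and an insulin receptor isoform, while the receptor IGF2R takes it up for degradation. IGF binding proteins are secreted carriers: they hold IGFs in the extracellular fluid, keep them from receptors or deliver them, and release them when proteases cut the carrier. IGFBP6 prefers IGF2 to IGF1, and IGFBP7 binds IGFs weakly and is often counted as an IGFBP-related protein.

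Spike-in transcripts were added to RNA from counted cells, and the sums of the spike-ins were nearly level between libraries, between 6505 and 6948 FPKM. The deposited values were therefore read as RNA per counted cell, and on that scale the median of all 12771 tested genes was below DMSO in every treated group. The median log2 change was -2.05 with imatinib plus JQ1, -1.49 with JQ1 at 24 h, -1.503 with imatinib at 24 h, -1.0003 with JQ1 at 6 h and -0.69 with imatinib at 6 h. Each change is therefore also given after ratio rescaling, which divides each library by the median ratio of its genes to their geometric mean over libraries and so measures a gene against the typical gene of its own library. That factor was 0.353, 0.612 and 0.444 in the imatinib plus JQ1 libraries, so replicate 2 was higher for the typical gene. On the deposited scale, the overlaps of this group given below for IGF2, IGFBP2, IGFBP5 and IGFBP7 rest on replicate 2. In bulk RNA, fewer cells that express a gene and less of its RNA per cell cannot be told apart. The GIST markers KIT, ANO1, ETV1, HAND1 and PRKCQ all reached 1 FPKM in a library, and their sum was 52.0 to 85.9 FPKM with imatinib plus JQ1, 137 to 181 FPKM with JQ1 at 24 h, 368 to 403 FPKM with imatinib at 24 h, 304 to 347 FPKM with JQ1 at 6 h, 467 to 530 FPKM with imatinib at 6 h and 1043 to 1546 FPKM in DMSO. The markers of epithelium, leukocytes, endothelium and smooth muscle each summed to 3.81 FPKM or less in every library. The part of these markers in the results was not tested.

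The upstream sequences of IGFBP5, IGFBP3 and IGFBP6 are shown because these were the 3 members called lower when JQ1 was added to imatinib, on the deposited scale; the call of IGFBP6 ended after ratio rescaling. The letters are the 250 bases before the RefSeq start of each gene, 5′ to 3′ on the gene's strand, in the GRCh38.p14 build; the FPKM table itself was made on hg19. Capitals mark matches on either strand to 1 of 6 searched motifs: TATAAA of the core promoter, the GC box GGGCGG, the E-box CACGTG, the AP-1 site TGANTCA, the ETS core CCGGAA and the FOXO site TGTTTAC. None of the matches in these 3 windows overlap.
IGFBP5, chr2:216695550-216695799, minus strand: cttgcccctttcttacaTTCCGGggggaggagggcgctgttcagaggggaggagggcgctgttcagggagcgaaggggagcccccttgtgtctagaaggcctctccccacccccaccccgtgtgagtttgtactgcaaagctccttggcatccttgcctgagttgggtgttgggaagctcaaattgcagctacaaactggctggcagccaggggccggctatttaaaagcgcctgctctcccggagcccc
IGFBP3, chr7:45921273-45921522, minus strand: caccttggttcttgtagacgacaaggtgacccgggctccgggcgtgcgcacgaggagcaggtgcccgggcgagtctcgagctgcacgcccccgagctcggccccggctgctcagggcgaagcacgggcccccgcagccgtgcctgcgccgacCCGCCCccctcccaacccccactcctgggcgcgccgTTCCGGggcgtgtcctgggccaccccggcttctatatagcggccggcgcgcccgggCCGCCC
IGFBP6, chr12:53097417-53097666, plus strand: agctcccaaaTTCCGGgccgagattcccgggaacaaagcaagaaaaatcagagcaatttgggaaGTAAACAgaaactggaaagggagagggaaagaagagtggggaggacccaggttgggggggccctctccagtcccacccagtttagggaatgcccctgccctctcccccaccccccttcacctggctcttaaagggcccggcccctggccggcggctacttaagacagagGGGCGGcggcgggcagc
Each of the 3 held a single ETS core, read on the opposite strand as TTCCGG, with its first base at -233 in IGFBP5, -62 in IGFBP3 and -240 in IGFBP6. The ETS core was present in 14.5% of 35114 RefSeq promoters of this length and in none of the windows of IGFBP2 or IGFBP4. The GC box was found in IGFBP3 at -98 and -6 and in IGFBP6 at -17, and in 42.6% of all promoters. IGFBP6 also held the FOXO motif at -186, which occurred in 2.98% of all promoters. The letters of the core promoter motif, the E-box and the AP-1 site, present in 10.7%, 6.35% and 6.57% of all promoters, were not in the 3 windows shown. A match describes letters only. IGFBP2 and IGFBP5 are neighbouring protein-coding genes on chromosome 2, IGFBP3 lies beside IGFBP1 on chromosome 7, and IGFBP6 is on chromosome 12. RefSeq windows were found for 5 of the 7 members, and IGF2 on chromosome 11 and IGFBP7 on chromosome 4 are named only.

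IGF2, the ligand, was the most abundant of the 7 transcripts in every group. Its level was 155, 282 and 162 FPKM in the imatinib plus JQ1 libraries, 259, 316 and 364 FPKM with JQ1 at 24 h, 304, 294 and 285 FPKM with imatinib at 24 h, 400, 391 and 440 FPKM with JQ1 at 6 h, 378, 379 and 416 FPKM with imatinib at 6 h, and 623, 736 and 1033 FPKM in DMSO. All 15 treated libraries lay below the 3 DMSO libraries. The mean was 200 ± 71.8 FPKM with imatinib plus JQ1 and 797 ± 212 FPKM in DMSO (SD, n = 3 each). The 2 groups at 6 h overlapped each other, and the JQ1 libraries at 24 h overlapped both the imatinib libraries at 24 h and the combination. On the log2(FPKM + 1) scale, IGF2 fell with imatinib plus JQ1 (-2.02 ± 0.21, SE), with JQ1 at 24 h (-1.33) and with imatinib at 24 h (-1.40), each a call. A call here is an adjusted p below 0.05 by limma with Benjamini-Hochberg adjustment over all tested genes, and a log2 change of at least 1 in size. At 6 h the log2 changes were -0.93 with JQ1 and -0.99 with imatinib, neither a call. Without DMSO replicate 1 both became calls, at -1.09 with JQ1 and -1.16 with imatinib, and the imatinib change was also one without DMSO replicate 2 (-1.04) or imatinib replicate 3 (-1.04). After ratio rescaling the 24 h changes turned round, to 0.41 with imatinib plus JQ1, 0.38 with JQ1 and 0.34 with imatinib, none of them a call.

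IGF2 shares its locus with the readthrough gene INS-IGF2 and the antisense gene IGF2-AS, and the sources used here do not give the strand setting of the authors' counting, so reads could be split between them. INS-IGF2 was listed at 0.0921 to 1.40 FPKM, while IGF2-AS had 4.16 to 26.9 FPKM. H19, the long noncoding RNA of the same imprinted region, averaged 1224 ± 481 FPKM with imatinib plus JQ1 and 7432 ± 1985 FPKM in DMSO. H19 fell by 2.64 on the log2 scale in that comparison, and was at -0.20 with no call after ratio rescaling. The ratio of IGF2 to H19 within a library is unchanged by a single factor on all its genes, though not by every normalization. It was 164 ± 4.99 FPKM of IGF2 per 1000 FPKM of H19 with imatinib plus JQ1, 130 ± 3.79 with JQ1 at 24 h, 116 ± 3.29 with imatinib at 24 h, 104 ± 0.701 with JQ1 at 6 h, 98.3 ± 2.35 with imatinib at 6 h and 107 ± 0.176 in DMSO (SD, n = 3 each). The combination libraries, at 159 to 168, lay above every other library. This and the other within-library ratios were chosen after values were seen and are given with no test.

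IGFBP2, a carrier found in many tumors, was the second most abundant binding protein. It had 33.6, 68.9 and 39.9 FPKM with imatinib plus JQ1, 72.0, 83.4 and 116 FPKM with JQ1 at 24 h, 51.5, 54.3 and 44.4 FPKM with imatinib at 24 h, 164, 157 and 177 FPKM with JQ1 at 6 h, 210, 211 and 207 FPKM with imatinib at 6 h, and 253, 335 and 418 FPKM in DMSO. Only the imatinib plus JQ1 and imatinib 24 h libraries overlapped among these groups. After ratio rescaling they did not overlap, at 90.3 to 113 FPKM with imatinib plus JQ1 and 59.3 to 73.5 FPKM with imatinib. IGFBP2 fell with imatinib plus JQ1 (-2.83 ± 0.23), with JQ1 at 24 h (-1.88) and with imatinib at 24 h (-2.69). The 6 h changes of -0.98 with JQ1 and -0.65 with imatinib were no calls, and the JQ1 change became one without DMSO replicate 1 (-1.17) or JQ1 replicate 3 (-1.02). After ratio rescaling the 24 h changes were -0.42, -0.18 and -0.97 in the same order, with no call, and the 6 h changes were 0.17 with JQ1 and 0.13 with imatinib. The rescaled DMSO libraries were at 123 to 140 FPKM. Imatinib at 24 h and the combination still lay below that range, and JQ1 at 24 h overlapped it.

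IGFBP7, the most abundant binding protein, had 53.6, 100.1 and 60.7 FPKM with imatinib plus JQ1, 117, 125 and 147 FPKM with JQ1 at 24 h, 86.4, 96.0 and 95.2 FPKM with imatinib at 24 h, 292, 253 and 308 FPKM with JQ1 at 6 h, 301, 318 and 325 FPKM with imatinib at 6 h, and 355, 502 and 606 FPKM in DMSO. The libraries of imatinib plus JQ1 overlapped those of imatinib at 24 h, and the 6 h groups overlapped each other. After ratio rescaling the 24 h overlap was gone, at 137 to 164 FPKM with imatinib plus JQ1 and 124 to 127 FPKM with imatinib. IGFBP7 fell with imatinib plus JQ1 (-2.77 ± 0.21), with JQ1 at 24 h (-1.87) and with imatinib at 24 h (-2.35). At 6 h its changes were -0.75 with JQ1 and -0.60 with imatinib, neither a call. After ratio rescaling its 24 h changes were -0.35, -0.17 and -0.62 in the same order and the 6 h changes 0.40 and 0.18, again without a call. The rescaled DMSO libraries were at 174 to 204 FPKM. Here too imatinib at 24 h and the combination lay below that range, and JQ1 at 24 h overlapped it.

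IGFBP5, a carrier that also binds the extracellular matrix, had the largest fold range of group means among the tested members. It had 1.25, 2.12 and 1.47 FPKM with imatinib plus JQ1, 1.91, 2.35 and 2.62 FPKM with JQ1 at 24 h, 18.5, 21.0 and 20.2 FPKM with imatinib at 24 h, 14.2, 13.6 and 15.4 FPKM with JQ1 at 6 h, 25.7, 25.8 and 30.3 FPKM with imatinib at 6 h, and 83.4, 96.0 and 125 FPKM in DMSO. Apart from the imatinib plus JQ1 and JQ1 24 h libraries, which overlapped, no 2 groups shared any of this range. Its mean was 62.9-fold lower with imatinib plus JQ1 than in DMSO and 44.3-fold lower with JQ1 at 24 h. With imatinib at 24 h it was 5.11-fold lower, with JQ1 at 6 h 7.05-fold and with imatinib at 6 h 3.72-fold. On the log2(FPKM + 1) scale IGFBP5 fell in all 5 comparisons: the changes were -5.29 ± 0.17 with imatinib plus JQ1 (limma, adjusted p = 2.0e-17), -4.95 with JQ1 at 24 h, -2.28 with imatinib at 24 h, -2.72 with JQ1 at 6 h and -1.84 with imatinib at 6 h (adjusted p = 6.9e-09). With JQ1 at 24 h, 0.125% of the tested genes lay lower. After ratio rescaling IGFBP5 still fell in 4 of them, at -3.22 with imatinib plus JQ1, -3.37 with JQ1 at 24 h, -1.58 with JQ1 at 6 h and -1.06 with imatinib at 6 h. Its change with imatinib at 24 h was then -0.58 and no call. The calls outside imatinib at 24 h also held under rescaling to a common total, with or without the MIR1244 rows.

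IGFBP3, the main carrier of IGFs in blood, was low in these cells. It had 0.594, 1.33 and 0.633 FPKM with imatinib plus JQ1, 0.790, 0.884 and 1.06 FPKM with JQ1 at 24 h, 7.51, 6.84 and 6.93 FPKM with imatinib at 24 h, 3.33, 2.99 and 3.44 FPKM with JQ1 at 6 h, 5.72, 5.69 and 6.14 FPKM with imatinib at 6 h, and 4.39, 6.18 and 7.20 FPKM in DMSO. The JQ1 groups at both times and the combination lay below every DMSO library, while both imatinib groups overlapped DMSO. IGFBP3 fell with imatinib plus JQ1 (-1.90 ± 0.15) and with JQ1 at 24 h (-1.84 ± 0.15), and its -0.68 with JQ1 at 6 h was no call. The changes were 0.25 ± 0.15 with imatinib at 24 h (limma, adjusted p = 0.128) and 0.01 ± 0.15 with imatinib at 6 h (adjusted p = 0.974). The 6 h value was -0.16 without DMSO replicate 1 and -0.025 without imatinib replicate 3. With imatinib at 24 h, 96.6% of tested genes lay below IGFBP3. After ratio rescaling IGFBP3 rose by 1.66 ± 0.08 with imatinib at 24 h, and the same call was made with total rescaling. On that scale its changes were -0.28 with imatinib plus JQ1, -0.61 with JQ1 at 24 h, 0.22 with JQ1 at 6 h and 0.59 with imatinib at 6 h, with no call. Rescaled IGFBP3 was 1.18 to 1.23 FPKM with JQ1 at 24 h and 2.15 to 2.51 FPKM in DMSO. The pseudocount of 1 FPKM, added before the log2, understates changes at such levels.

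IGFBP6, the carrier with a preference for IGF2, was also low. It had 0.408, 0.373 and 0.329 FPKM with imatinib plus JQ1, 0.933, 0.962 and 1.35 FPKM with JQ1 at 24 h, 1.80, 2.15 and 1.81 FPKM with imatinib at 24 h, 3.90, 2.01 and 3.46 FPKM with JQ1 at 6 h, 3.91, 3.10 and 4.29 FPKM with imatinib at 6 h, and 3.74, 6.16 and 7.10 FPKM in DMSO. The 3 groups at 24 h did not overlap one another, and each lay below DMSO, while both 6 h groups overlapped DMSO. IGFBP6 fell with imatinib plus JQ1 (-2.25 ± 0.18), with JQ1 at 24 h (-1.65) and with imatinib at 24 h (-1.16), and the last was no call without DMSO replicate 3 (-0.999). At 6 h its changes were -0.69 with JQ1 and -0.46 with imatinib. At these levels the pseudocount of 1 FPKM understates the change. After ratio rescaling the 24 h changes were -0.82, -0.42 and 0.16 in the same order and the 6 h changes 0.21 with JQ1 and 0.16 with imatinib, with no call. IGFBP4, a carrier that mostly blocks IGF action, had 0.0913 to 0.462 FPKM over the 18 libraries, and IGFBP1 was near the floor of about 0.1 FPKM.

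**Figure D1:**
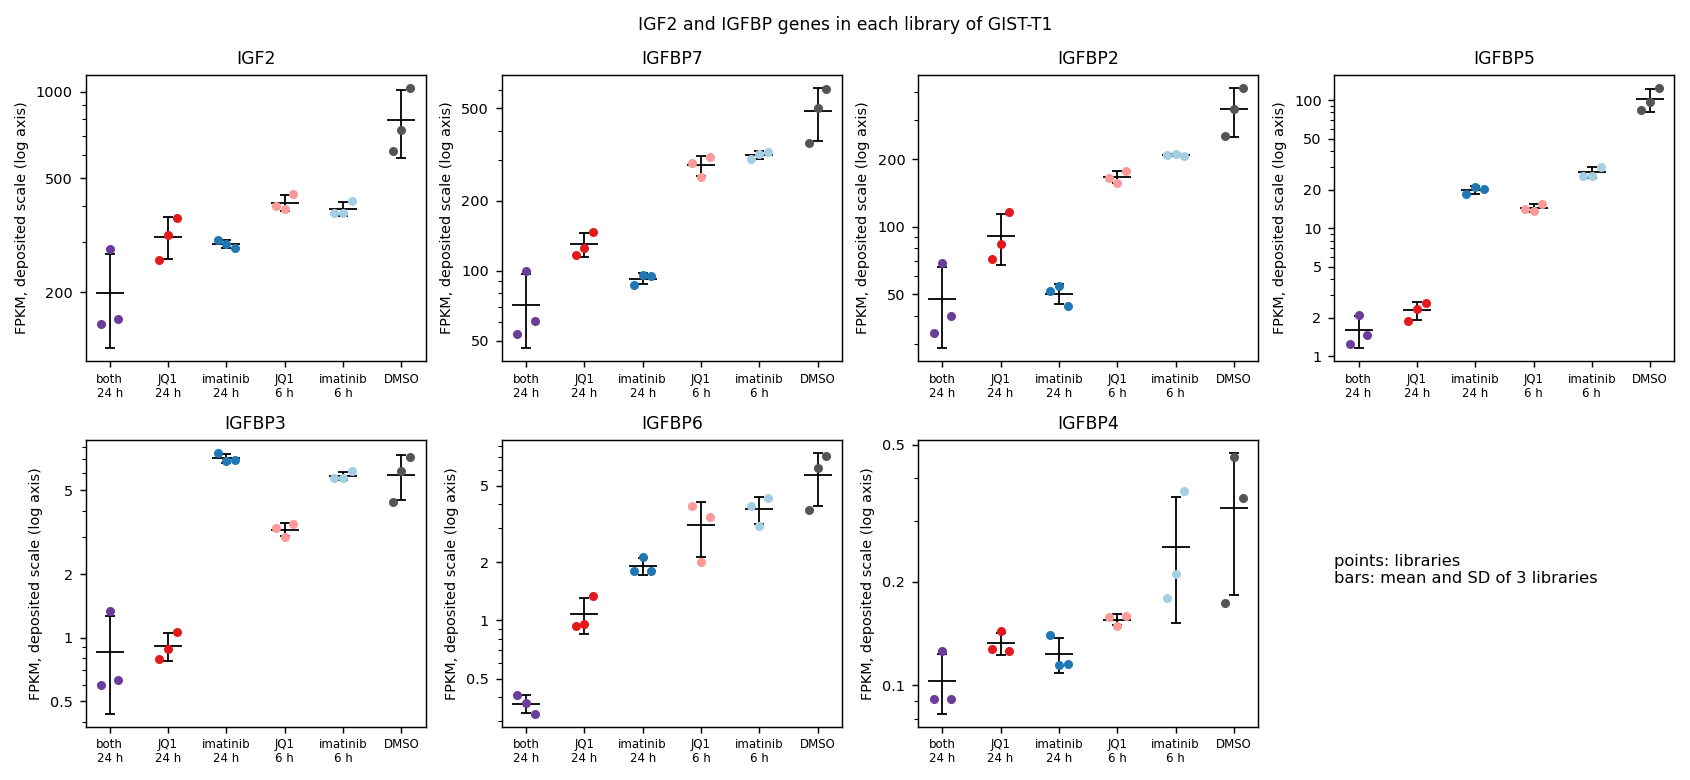
FPKM (log axis) of each of the 7 genes in the 18 libraries, with groups from imatinib plus JQ1 at the left to DMSO at the right; points are libraries and bars are the mean and SD of 3. IGFBP5 ranged from 1.25 FPKM with imatinib plus JQ1 to 125 FPKM in DMSO, and IGFBP3 with imatinib at 24 h overlapped DMSO.

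Counting calls against DMSO on the deposited scale, all 6 tested members fell with imatinib plus JQ1, where 86% of all tested genes fell. All 6 fell with JQ1 at 24 h, against 75.3% of genes, and 5 of 6 fell with imatinib at 24 h, against 72.1%. With JQ1 at 6 h 1 member was called lower, IGFBP5, where 49.8% of genes were. With imatinib at 6 h the same gene was called, where 20% of genes were. The other tested members were also lower with JQ1 at 6 h, at adjusted p of 0.0020 or less by limma. So were IGF2, IGFBP2, IGFBP6 and IGFBP7 with imatinib at 6 h, at adjusted p of 0.023 or less. Their changes were below 1 log2 in size and so were no calls. The members' median changes were -2.51, -1.86, -1.84, -0.84 and -0.62 in that order of groups, against medians over all genes of -2.05, -1.49, -1.503, -1.0003 and -0.69. These 5 comparisons share the DMSO libraries. After ratio rescaling 1 member fell in each of imatinib plus JQ1, JQ1 at 24 h, JQ1 at 6 h and imatinib at 6 h, IGFBP5 in each case, where 10.2%, 6.48%, 2.58% and 2.08% of all genes did, and 1 member, IGFBP3, rose with imatinib at 24 h, where 8.8% did.

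**Figure D2:**
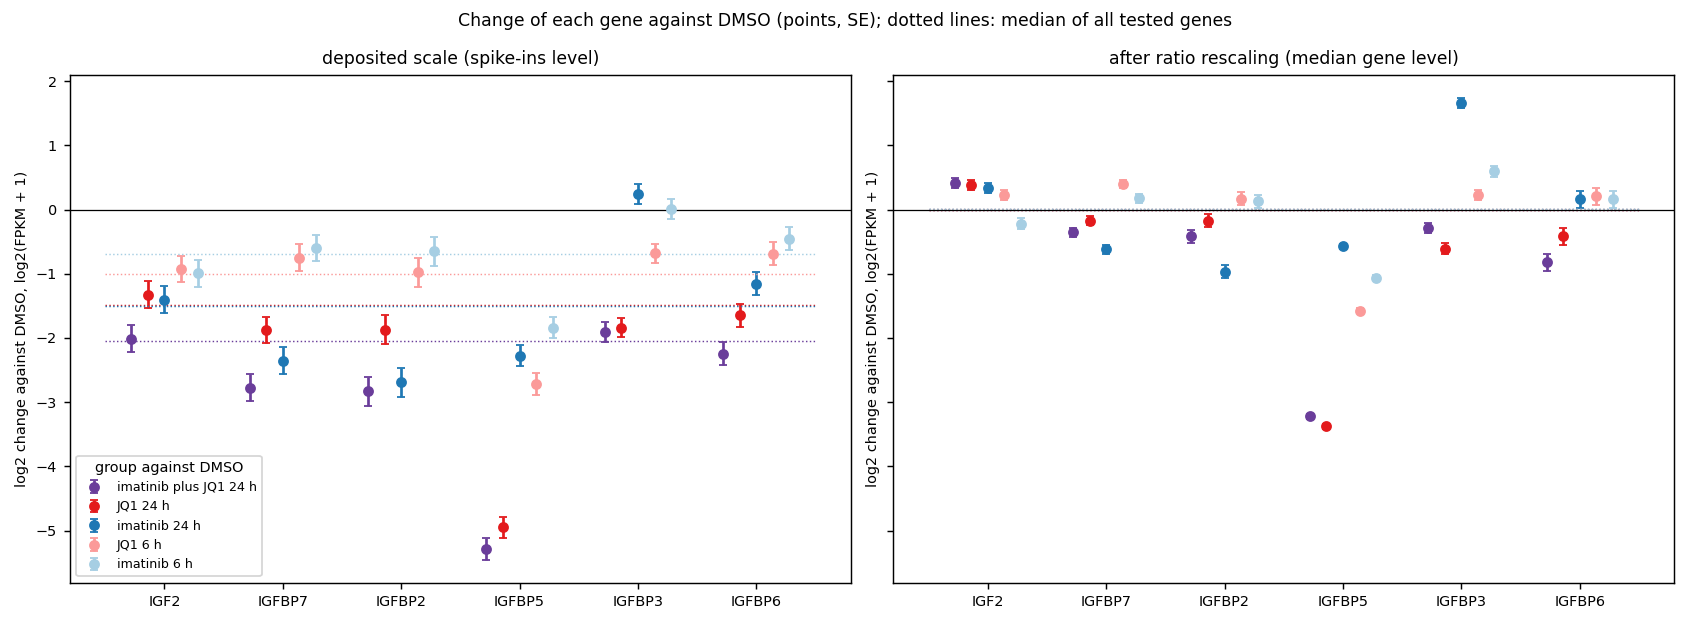
Log2 change against DMSO of the 6 tested members on the deposited scale and after ratio rescaling, in each treated group, with the SE of the limma fit and a dotted line at the median of all tested genes. IGFBP5 lies lowest with JQ1, and IGFBP3 with imatinib at 24 h is at 0.25 on the deposited scale and 1.66 after rescaling.

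JQ1 and imatinib were compared with each other at matched dose and time. At 24 h, JQ1 libraries had lower IGFBP3 (-2.08 ± 0.15) and IGFBP5 (-2.67 ± 0.17) than imatinib libraries, where 4.88% of all genes were lower. Both calls remained after ratio rescaling, at -2.27 for IGFBP3 and -2.80 for IGFBP5, where 6.1% were. IGFBP2 was 0.82 ± 0.23 higher with JQ1 than with imatinib, with no call. At 6 h none of the 6 members was a call between JQ1 and imatinib by limma, where 9.36% of genes were lower. IGFBP3 at -0.69 (limma, adjusted p = 0.00079) and IGFBP5 at -0.87 (adjusted p = 0.00016) missed a call only because of their size. The median over all genes was -0.30 there. Adding JQ1 to imatinib at 24 h went with lower IGFBP5 (-3.01 ± 0.17), IGFBP3 (-2.15 ± 0.15) and IGFBP6 (-1.09 ± 0.18) than imatinib alone, where 14.5% of genes fell. IGFBP2, at -0.14, and IGFBP7, at -0.42, did not pass the test, and IGF2, at -0.61, was no call either. After ratio rescaling IGFBP5 at -2.65 and IGFBP3 at -1.95 were calls, where 5.6% of genes fell, and IGFBP6 at -0.98 was not. The pseudocount of 1 FPKM understates the change of IGFBP6 at its low level. Adding imatinib to JQ1 at 24 h gave 0 calls of 6 by limma, where 7.35% of genes fell. The log2 changes of the 6 ran from -0.96 for IGFBP2 to -0.06 for IGFBP3. IGFBP2, IGFBP7, IGFBP6 and IGF2 were lower at adjusted p of 0.0015, 0.0013, 0.0064 and 0.0074 by limma. These 4 missed a call only because their changes were below 1 log2 in size. The median over all genes was -0.54 in this comparison. Of all tested genes, 9.15% lay below IGFBP2, 11.9% below IGFBP7, 41.9% below IGFBP6 and 30.1% below IGF2. There, IGFBP2 became a call without the unnumbered JQ1 library (-1.11), JQ1 replicate 2 (-1.0001) or imatinib plus JQ1 replicate 2 (-1.25), and IGFBP7 without the last of these (-1.17).

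The interaction of the drugs at 24 h asks whether the change with both differs from the sum of the changes with each, on the log2 scale, so a positive value means a smaller fall than the sum. It was 1.94 ± 0.23 for IGFBP5, 1.74 ± 0.32 for IGFBP2 and 1.45 ± 0.29 for IGFBP7, all calls by limma, where 46.8% of genes had a positive call and the median of all genes was 0.95. For IGFBP5 the positive sign was fixed by the scale. Its changes of -4.95 with JQ1 and -2.28 with imatinib add to more than its whole DMSO level on log2(FPKM + 1). No fall with both drugs could equal that sum, so its value does not show how the drugs combine. IGF2 at 0.71, IGFBP6 at 0.56 and IGFBP3 at -0.31 were no calls. After ratio rescaling IGFBP5 was at 0.73, IGFBP2 at 0.72 and IGFBP7 at 0.44, with no call, and IGFBP3 at -1.34 was the member called, where 5.83% of genes had a negative call.

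Between 24 h and 6 h of imatinib, IGFBP2 (-2.05) and IGFBP7 (-1.76) were lower at 24 h, where 33.4% of genes fell, and IGFBP5, at -0.44, did not reach a call. Between 24 h and 6 h of JQ1, IGFBP5 (-2.23), IGFBP3 (-1.15) and IGFBP7 (-1.13) were lower at 24 h, where 14.2% of genes fell. Without JQ1 24 h replicate 3, IGFBP2 (-1.09) and IGFBP6 (-1.05) were calls as well, and IGFBP6 was also one without JQ1 6 h replicate 2 (-1.17). After ratio rescaling, IGFBP5 at -1.80 was the call left between the JQ1 times, where 3.46% of genes fell. Between the imatinib times IGFBP3 was then higher at 24 h (1.07), where 3.98% of genes rose, and IGFBP2 lower (-1.09), where 4.38% fell, but under both total rescalings IGFBP2 was no call.

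The balance among the carriers, taken within each library, is unchanged by a single factor on all genes of that library. The normalization step of the deposited values is not given, and other steps could change the balance. IGFBP5 made up 1.35% ± 0.106 of the summed FPKM of IGFBP2 to IGFBP7 with imatinib plus JQ1, 1.02% ± 0.0718 with JQ1 at 24 h, 11.6% ± 0.416 with imatinib at 24 h, 3.06% ± 0.0945 with JQ1 at 6 h, 4.86% ± 0.383 with imatinib at 6 h and 10.9% ± 0.900 in DMSO (SD, n = 3 each). The share with imatinib at 24 h, between 11.1% and 11.95%, overlapped that in DMSO, between 10.2% and 11.9%. IGFBP3 made up 4.14% ± 0.369 with imatinib at 24 h and 0.633% ± 0.0182 in DMSO. IGFBP2 and IGFBP7 together carried most of the sum in every group, and the IGFBP7 share ran from 50.8% in a DMSO library to 61.1% in a JQ1 6 h library. The ratio of IGF2 to the sum was 1.64 ± 0.0795 with imatinib plus JQ1, 1.39 ± 0.0793 with JQ1 at 24 h, 1.72 ± 0.103 with imatinib at 24 h, 0.871 ± 0.0372 with JQ1 at 6 h, 0.696 ± 0.0282 with imatinib at 6 h and 0.852 ± 0.0640 in DMSO. All 9 treated libraries at 24 h were at 1.34 or higher. The 6 h libraries and the DMSO libraries, for which no time is given, were at 0.910 or lower.

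**Figure D3:**
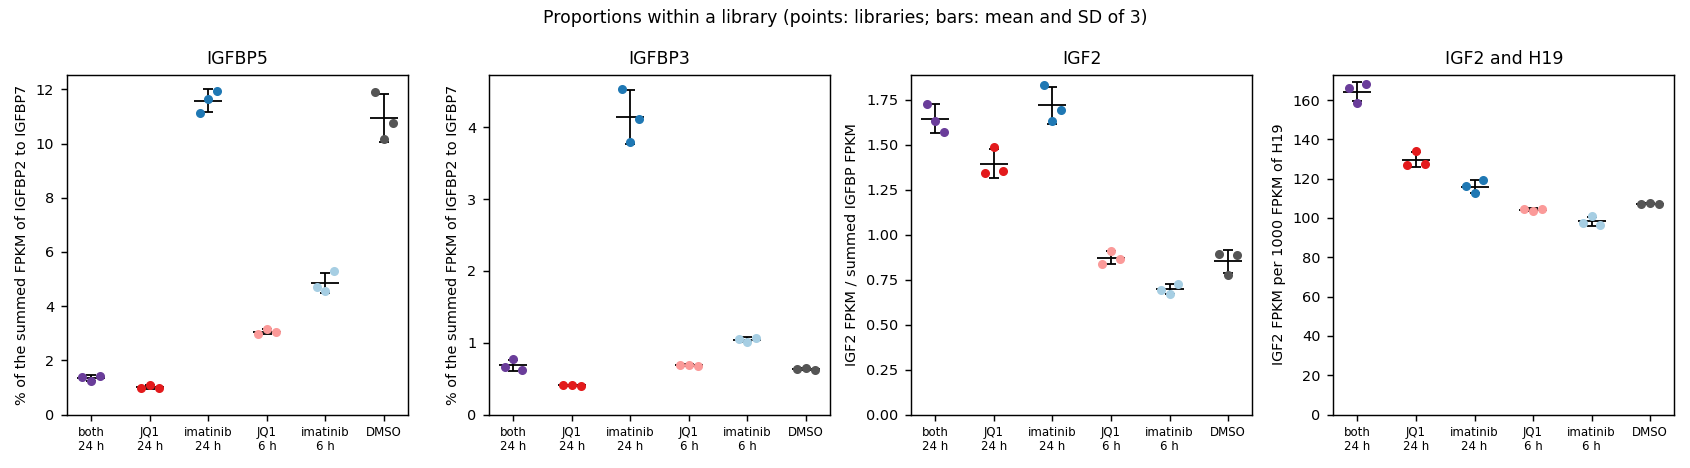
Within-library proportions, which are unchanged by a single factor on a library, by group from imatinib plus JQ1 to DMSO: the share of IGFBP5 and IGFBP3 in summed IGFBP2 to IGFBP7 FPKM, the ratio of IGF2 to that sum, and IGF2 per 1000 FPKM of H19. Points are libraries and bars are the mean and SD of 3; the IGFBP5 share is near 1% with JQ1 at 24 h and near 11% in DMSO.

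The other genes of the IGF pathway came from a list of 56, of which 41 were tested. Against DMSO, 37 of the 41 fell with imatinib plus JQ1, where 86% of all tested genes fell, 33 with JQ1 at 24 h (75.3% of all genes), 33 with imatinib at 24 h (72.1%), 19 with JQ1 at 6 h (49.8%) and 8 with imatinib at 6 h (20%), shares near those of all genes. In the same order, 0.235%, 0.399%, 0.642%, 0.642% and 0.384% of all genes rose. By limma 0 of the 41 rose in any of the 5 comparisons, and between 0 and 3 had a higher value at an unadjusted p below 0.05. The list's median changes of -2.11, -1.58, -1.58, -0.98 and -0.80 stand beside -2.05, -1.49, -1.503, -1.0003 and -0.69 over all genes. After ratio rescaling 6, 4, 4, 1 and 1 of the 41 fell in the same order, where 10.2%, 6.48%, 8.75%, 2.58% and 2.08% of all genes fell. On that scale 6, 1, 3, 1 and 0 of the 41 rose, where 9.19%, 5.26%, 8.8%, 2.47% and 1.22% of all genes rose. Neither IGF1 nor the insulin gene INS was tested. The receptor IGF1R had at most 0.862 FPKM and was not tested, while IGF2R had 13.1 to 97.4 FPKM. Of 4 tested receptors 3 fell in each 24 h group, where 86%, 75.3% and 72.1% of all genes fell with imatinib plus JQ1, JQ1 and imatinib. INSR, the insulin receptor, averaged 2.81 ± 0.198 FPKM with imatinib at 24 h and 1.52 ± 0.380 FPKM in DMSO, with a log2 change of 0.61 that was no call, and of 1.58 after ratio rescaling that was one. It was singled out after its values were seen. Among the proteases of binding proteins and their inhibitors, STC2 and STC1 encode stanniocalcins, inhibitors of the protease pappalysin, which cuts IGFBP4 and IGFBP5. STC2 averaged 0.135 ± 0.0178 FPKM with imatinib plus JQ1, 0.647 ± 0.118 with JQ1 at 24 h, 1.21 ± 0.0124 with imatinib at 24 h, 2.60 ± 0.302 with JQ1 at 6 h, 2.55 ± 0.243 with imatinib at 6 h and 43.4 ± 8.78 in DMSO. It fell in every comparison with DMSO, at -5.27 with imatinib plus JQ1 and -3.63 with imatinib at 6 h, and no treated library overlapped DMSO. After ratio rescaling STC2 still fell in all 5, between -3.82 with imatinib plus JQ1 and -2.46 with JQ1 at 6 h. With imatinib plus JQ1 the level of STC2 was near the floor, which limits the size of its changes there. PAPPA, the pappalysin gene, was near the floor, at or below 0.136 FPKM in all libraries. PLAT, which encodes tissue plasminogen activator, fell with imatinib plus JQ1 (-5.17), JQ1 at 24 h (-2.87) and imatinib at 24 h (-3.98), and after ratio rescaling also, at -2.74, -1.17 and -2.24 in that order. STC1 was at -1.53 with imatinib at 6 h, and RPTOR, a subunit of the mTORC1 kinase complex, at -1.92 with JQ1 at 6 h, both calls that ended after ratio rescaling, at -0.75 and -0.83.

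**Figure D4:**
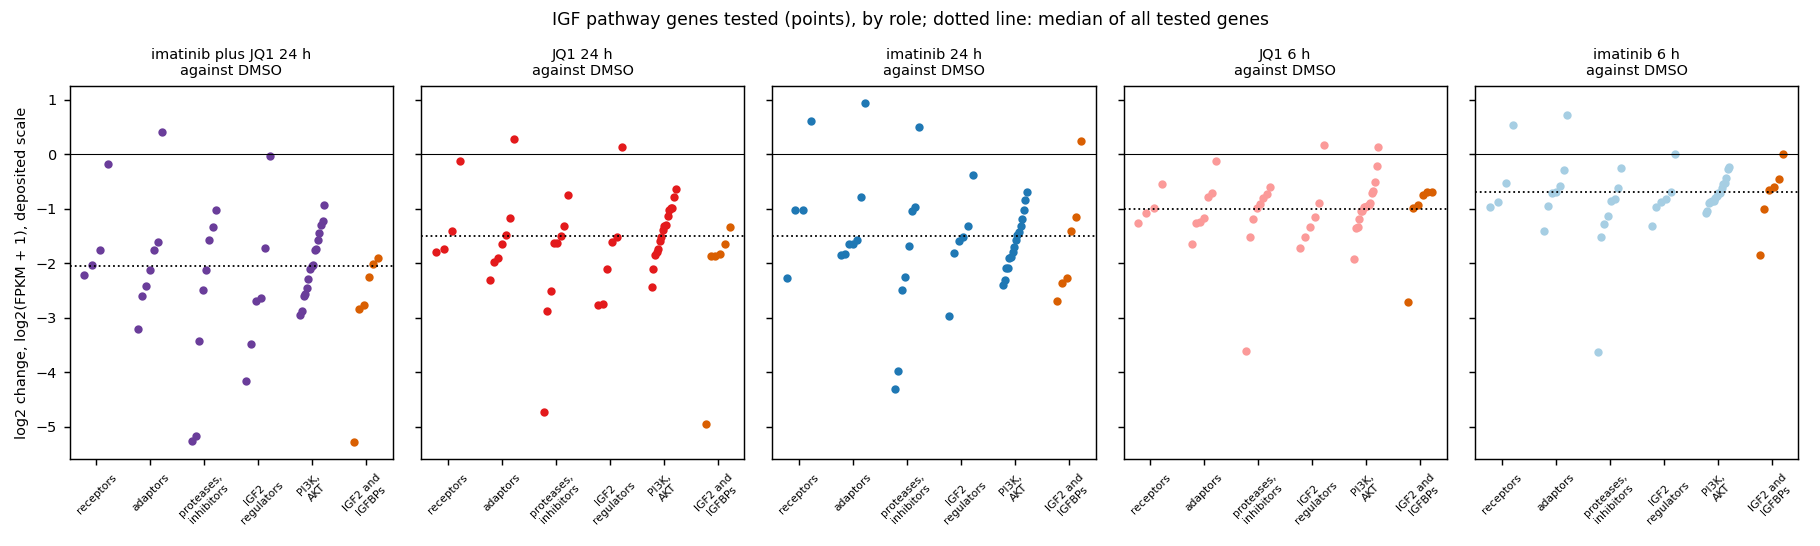
Log2 change against DMSO of the tested IGF pathway genes by role on the deposited scale, in each treated group. Points are genes, with IGF2 and the IGFBPs at the right of each panel, and the dotted line is the median of all tested genes; STC2, at -5.27 with imatinib plus JQ1, and IGFBP5, at -5.29, lie lowest.

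For each member the genes with the most similar pattern over the 18 libraries were taken by Pearson correlation after ratio rescaling, among 4541 genes whose group means span at least 1 log2. These libraries share groups, so the values describe likeness only. IGF2 itself spanned 0.632 log2, so genes that varied as little as IGF2 were not among the candidates. IGFBP5 was closest to GBP3 (r = 0.994), SLC25A43 (0.992) and WISP1 (0.990), and IGFBP3 to TCN2 (0.992), ELN (0.980) and CAPN1 (0.978). IGFBP2 was closest to LSM4 (0.972), SAE1 (0.968) and CD320 (0.966), and IGFBP7 to NDUFS5 (0.973), VCP (0.970) and DYNC1I1 (0.968). IGF2 was closest to CLIP2 (0.930), PCYOX1L (0.927) and TBC1D16 (0.926), and IGFBP6 to HSD11B1 (0.930), COX7A1 (0.928) and AQP3 (0.926).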

How the data were processed

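The authors deposited FPKM values for 23713 rows and 18 libraries, 92 of them ERCC spike-ins; the file label calls them normalized, and the sources used here do not give the step. STAR, Cufflinks and hg19 are named, with no versions, per the submitters' processing notes. Library depth cannot be had from FPKM, and error is judged from the 3 libraries of a group. One JQ1 24 h column whose number has no matching title was kept as an unnumbered library, and 0 columns had no label. The 12771 genes that reached 1 FPKM in 3 or more libraries were fitted on log2(FPKM + 1) in 1 limma fit of all 6 groups with an intensity trend (R 4.3.3, limma 3.58.1), and 12 comparisons were taken from it, each two-sided with Benjamini-Hochberg adjustment over all genes; calls need adjusted p below 0.05 and a log2 change of at least 1 in size. On simulated data for imatinib 6 h against DMSO, 97% of 100 genes changed by 1.5 log2 and 99% of 100 changed by 2 log2 were recovered among 12771 genes, with 1 false call. The changed genes were drawn from those above 2 in DMSO on the log2(FPKM + 1) scale. Noise was normal and independent between libraries, and no other gene was changed. These rates therefore do not cover low genes or a shift of most genes. The alternatives were a pseudocount of 0.1, dropping the filter, requiring a mean of 5 FPKM, 3 rescalings, a replicate block and leaving out each library. Named genes were the 7 members, the 2 pathway genes with the largest calls each way per comparison with DMSO, the 3 genes most like each member, and KIT and ETV1. IGF1, INS, IGF1R, IGF2R, PAPPA, H19, IGF2-AS, INS-IGF2, IGFBP1 and the other GIST markers are named outside that rule, for their role or place, and INSR after its values were seen. The members and lists were chosen with earlier results of these data known. Promoters are from RefSeq. Tables and figures were made with Python 3.11.15, pandas 2.3.3 and matplotlib 3.10.9.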

Additional observations from a re-analysis of the deposited data

Results flagged for a closer look

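On the deposited scale the limma interaction test gave calls for 3 genes. For IGFBP5 the positive sign was fixed by the floor of the log2(FPKM + 1) scale, so its call does not show how the drugs combine. The interaction at 24 h was 1.74 log2 for IGFBP2, 1.94 for IGFBP5 and 1.45 for IGFBP7, against a median of 0.95 over all tested genes. Of all tested genes 46.8% had a positive call, so 3 of 6 members is near the share of all genes. After ratio rescaling these were 0.72, 0.73 and 0.44, with no call. IGFBP3 was then the member called, with a negative value.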

How the results depend on the processing

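Leaving the libraries as deposited, dropping the filter on low values changed no call among the 12 comparisons of 6 members. With a pseudocount of 0.1, IGFBP6 became a call in imatinib plus JQ1 against JQ1 at 24 h (1 member called against 0) and in JQ1 at 24 h against 6 h, which made 4 called. With a mean of at least 5 FPKM, IGFBP3 and IGFBP6 were not tested, which left 1 call for imatinib plus JQ1 against imatinib and 1 for JQ1 against imatinib at 24 h. Replicate numbers did not pair the libraries: over 40 pairs with the same number in different groups the correlation of deviations ranged from -0.238 to 0.193, with a median of -0.034, and 4 exceeded 0.1. With the replicate block, 1 member against 0 was called in imatinib plus JQ1 against JQ1 at 24 h (IGFBP2, at -1.03), and no other call changed. Leaving out 1 library at a time gave 1 to 2 calls for imatinib 6 h against DMSO, 1 to 3 for JQ1 6 h against DMSO, 0 to 2 for imatinib plus JQ1 against JQ1 at 24 h, and 3 to 5 for JQ1 24 h against 6 h. It turned the direction of IGFBP3 for imatinib 6 h against DMSO (-0.16 to 0.14) and for imatinib plus JQ1 against JQ1 (-0.24 to 0.033), of IGFBP2 for imatinib plus JQ1 against imatinib (-0.44 to 0.070) and of IGF2 for JQ1 against imatinib at 24 h (-0.040 to 0.20), none of them a call.

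Rescaling changed more. Each of the 3 rescalings left 1 member called in imatinib plus JQ1, JQ1 24 h and imatinib 24 h against DMSO, against 6, 6 and 5 as deposited, and 1 in JQ1 24 h against 6 h and in the interaction, against 3 and 3. With the total without MIR1244, 1 member was called in imatinib 24 h against 6 h, against 2. In the order ratio rescaling, total without MIR1244 and total of all genes, 19.4%, 20.1% and 19.8% of all genes were called in either direction in imatinib plus JQ1 against DMSO, 11.7%, 12.1% and 11.8% in JQ1 24 h, 17.6%, 18% and 22.9% in imatinib 24 h, 6.14%, 6.2% and 9.42% in JQ1 24 h against 6 h, and 10.7%, 11.5% and 16.3% in the interaction; it was 8.95% in imatinib 24 h against 6 h with the total without MIR1244. The cause was not tested. Directions turned as follows, with 3 values given in the order ratio rescaling, total without MIR1244 and total of all genes. For imatinib plus JQ1 24 h against DMSO, IGF2 was at 0.41, 0.27 and 0.54. For JQ1 24 h against DMSO, IGF2 was at 0.38, 0.26 and 0.48. For imatinib 24 h against DMSO, IGF2 was at 0.34, 0.41 and 0.78 and IGFBP6 was at 0.16, 0.21 and 0.49. For JQ1 6 h against DMSO, IGF2 was at 0.22 and IGFBP2 was at 0.17 with ratio rescaling, and IGFBP3 was at 0.22 and 0.041 and IGFBP6 was at 0.21 and 0.027 with ratio rescaling and rescaling to the total without MIR1244, and IGFBP7 was at 0.40, 0.15 and 0.07. For imatinib 6 h against DMSO, IGFBP2 was at 0.13, 0.091 and 0.12, IGFBP6 was at 0.16, 0.14 and 0.15 and IGFBP7 was at 0.18, 0.14 and 0.17. For imatinib plus JQ1 24 h against imatinib 24 h, IGF2 was at 0.079 with ratio rescaling, and IGFBP2 was at 0.55, 0.33 and 0.23, and IGFBP7 was at 0.27 and 0.046 with ratio rescaling and rescaling to the total without MIR1244. For imatinib plus JQ1 24 h against JQ1 24 h, IGF2 was at 0.037, 0.0023 and 0.064, IGFBP3 was at 0.33, 0.30 and 0.35 and IGFBP5 was at 0.15, 0.12 and 0.17. For JQ1 24 h against imatinib 24 h, IGF2 was at -0.15 and -0.31 with rescaling to the total without MIR1244 and rescaling to the total of all genes. For JQ1 6 h against imatinib 6 h, IGFBP2 was at 0.039 and IGFBP6 was at 0.049 with ratio rescaling, and IGFBP7 was at 0.22 and 0.0048 with ratio rescaling and rescaling to the total without MIR1244. For imatinib 24 h against imatinib 6 h, IGF2 was at 0.55, 0.66 and 1.01 and IGFBP5 was at 0.49, 0.60 and 0.93, and IGFBP6 was at 0.078 and 0.34 with rescaling to the total without MIR1244 and rescaling to the total of all genes. For JQ1 24 h against JQ1 6 h, IGF2 was at 0.16, 0.29 and 0.58, and IGFBP2 was at 0.083 with rescaling to the total of all genes. For the interaction of imatinib and JQ1 at 24 h, IGF2 was at -0.30, -0.41 and -0.72 and IGFBP6 was at -0.56, -0.63 and -0.89.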
